A study of Mus musculus with 6 samples.

Results

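The genes described here are 10 regulators of spermatogonia, the mitotic germ cells at the base of the seminiferous tubule: Zbtb16, Gfra1, Ret, Id4, Nanos2, Nanos3, Sohlh1, Sohlh2, Dmrt1 and Dmrtb1. They were chosen by symbol from the 34144 gene rows of the series, and all 10 were present and passed the filter on low counts, as did 21002 genes in all. In the order named they lie on mouse chromosomes 9, 19, 6, 13, 7, 8, 2, 3, 19 and 4. RNA came from tubules of decapsulated testes, from 3 wild-type mice and 3 mice labelled Nsun7-/-, all labelled C57Bl/6J and 3 months old, 1 library per mouse. Nsun7 belongs by sequence to a family of RNA cytosine methyltransferases, and the series title calls its product RNA-binding and says that it destabilises transcripts of elongated spermatids. The labels do not say which part of Nsun7 the allele removes, and they name no treatment.

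Spermatogonial stem cells balance self-renewal against differentiation. GDNF from somatic cells of the testis acts on stem cells through its co-receptor GFRA1 and the kinase RET, while ZBTB16 (also called PLZF), ID4 and NANOS2 are known for keeping spermatogonia undifferentiated. SOHLH1, SOHLH2 and DMRTB1 act later, in spermatogonia that differentiate under retinoic acid, and DMRT1 controls when spermatogonia leave mitosis for meiosis. Spermatogonia are a small part of the adult testis, whose RNA comes mostly from spermatocytes and spermatids, so that in these whole-tubule libraries fewer cells of a type and less RNA per cell cannot be told apart.

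The libraries held between 23480448 and 28558865 estimated counts. Nsun7 itself was at 36.5 ± 0.762 CPM in wild-type testes and 20.3 ± 4.19 in Nsun7-/- testes (SD, n = 3 each; log2 fold change -0.84, edgeR adjusted p = 0.016), without overlap. Leaving out wild-type mouse 1 (log2 fold change -0.85, adjusted p = 0.0848), 2 (-0.87, 0.0556) or 3 (-0.83, 0.0785) or knockout mouse 2 (-0.76, 0.093) took it past the threshold of 0.05. On log2(TPM + 1) the value was -0.46 (limma adjusted p = 0.395), and the TPM of the genotypes overlapped. On the first principal component of log2 CPM, wild-type mice 1 to 3 lay at -38.3, -21.3 and -6.39. Knockout mice 1 to 3 lay at 0.981, 15.9 and 49.2, so this component separated the genotypes. Wild-type mouse 1 and knockout mouse 3 lay at its opposite ends, and results are therefore also given without these 2 libraries. They are also the libraries furthest apart in the direction of genotype. The RNA Rmrp took from 33.3% of TPM (a share of the library's transcripts, corrected for length) in wild-type mouse 1 down to 11.4% in knockout mouse 3. TPM is therefore used here for the order of genes within a library, and CPM (counts relative to the TMM-scaled library size) for the genotypes. Marker genes of 10 germ and somatic cell types, from Sertoli cells to elongating spermatids, all had counts in all libraries.

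The 10 genes were transcribed at levels spread over more than 2 orders of magnitude. Dmrtb1 was highest, at 291 ± 14.7 TPM in wild-type testes and 433 ± 6.4 in Nsun7-/- testes (SD, n = 3), above 98.8% of the tested genes. Dmrt1 followed at 60.8 ± 2.49 and 54.6 ± 3.08 TPM. The step from Dmrtb1 to Dmrt1 was 6.27-fold over the mean of all 6 libraries, and Dmrt1 stood 4.06-fold above Id4. The ranges of neither pair overlapped.

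A middle group lay between 6.54 and 15.9 TPM. Id4, at 13.2 ± 2.03 TPM in wild-type testes and 15.3 ± 0.996 in Nsun7-/- testes, was above Sohlh2 in 6 of 6 libraries, although their ranges overlapped. Sohlh2 (9.5 ± 2.29 and 11.9 ± 1.53 TPM) and Sohlh1 (9.45 ± 0.477 and 9.84 ± 0.69) could not be ordered, Sohlh2 being higher in 3 of 6 libraries. Zbtb16, at 7.07 ± 0.462 and 8.92 ± 1.03 TPM, was below Sohlh1 in 5 of 6.

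The GDNF receptor genes and the NANOS genes were the lowest. Zbtb16 stood 4.29-fold above Nanos3, the next in order, with no overlap. Nanos3 (1.75 ± 0.495 and 1.97 ± 0.752 TPM), Gfra1 (1.21 ± 0.161 and 2.22 ± 0.521), Ret (1.3 ± 0.339 and 1.6 ± 0.219) and Nanos2 (0.851 ± 0.545 and 1.11 ± 0.715) overlapped each other, and each neighbour in that order exceeded the next in 3, 5 and 4 of 6 libraries. Nanos2 lay above 15.3% of the tested genes. In CPM, not corrected for length, Nanos3 was the lowest of the 10, at 0.767 ± 0.382 and 0.693 ± 0.159. Its noncoding transcript Nanos3-203, of 434 bases, held at most 6.08 counts in a library. It made up 28.9% to 42.5% of Nanos3 TPM, except in knockout mouse 1, where it had no counts.

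**Figure D1:**
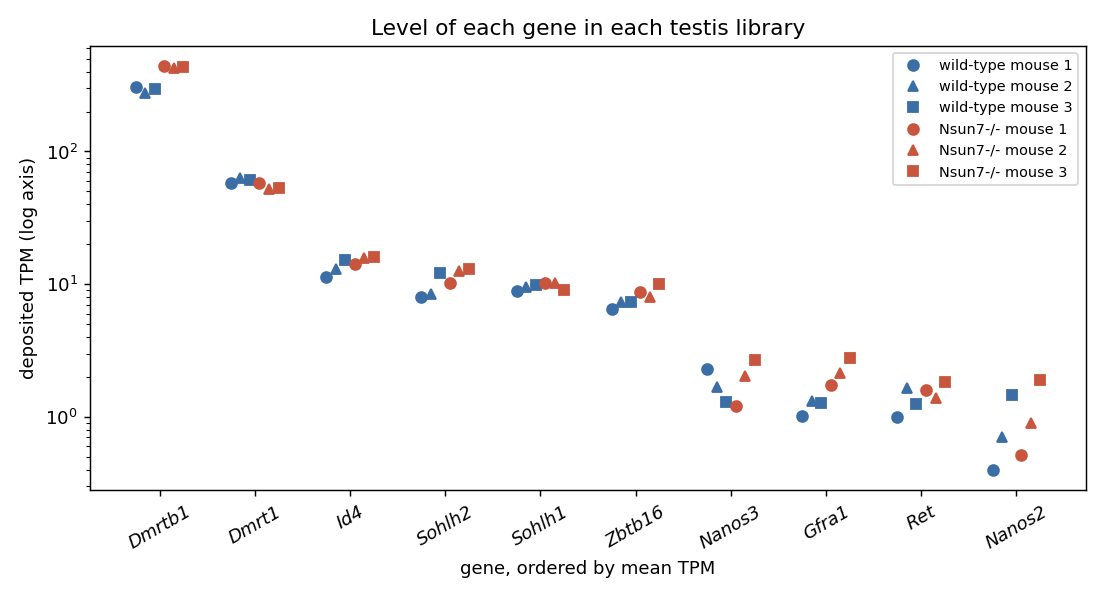
Deposited TPM (log axis) of each gene in each of the 6 testis libraries, with genes ordered by mean TPM, blue for wild type and red for Nsun7-/-. Dmrtb1 and Dmrt1 stand apart at the top, Id4, Sohlh2, Sohlh1 and Zbtb16 form a middle group, and Nanos3, Gfra1, Ret and Nanos2 overlap at the bottom.

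The comparison of genotypes asked whether RNA of these regulators differs in testes that carry the Nsun7-/- alleles. None of the 10 genes passed a Benjamini-Hochberg adjusted p of 0.05 in edgeR's quasi-likelihood test over all 21002 genes, where 119 genes (0.567%) did, 49 (0.233%) higher and 70 (0.333%) lower in Nsun7-/- testes. DESeq2 and limma voom called 0 of the 10 as well. At an unadjusted p under 0.05 there were 2, Gfra1 and Dmrt1, against 8.39% of all tested genes, and the same 2 were those whose CPM did not overlap between the genotypes, against 14.3% of all. Of the 10 log2 fold changes, 5 were above and 5 below 0, with a median of 0.01, where the median of all tested genes was 0.02. Over all genes the calls fell to 67, 78 and 78 without wild-type mouse 1, 2 or 3.

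**Figure D2:**
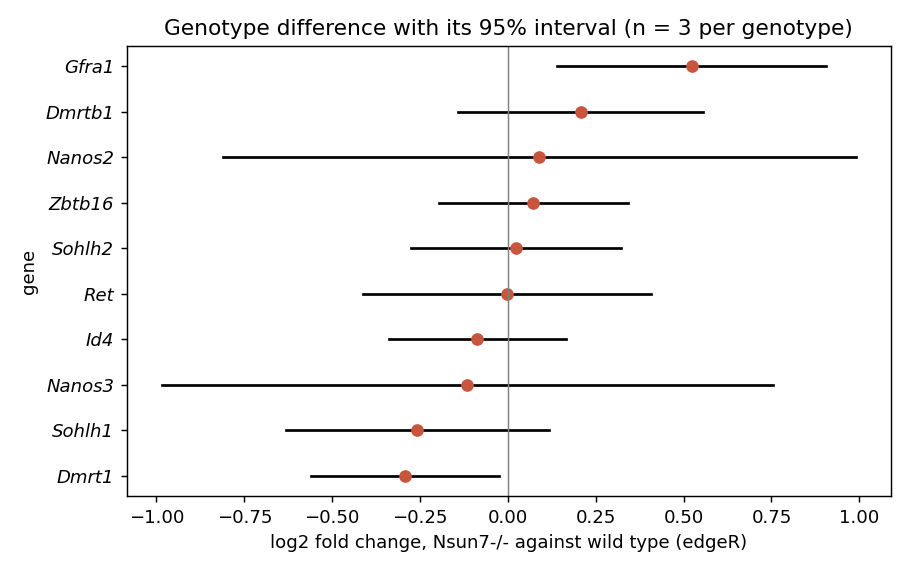
Log2 fold change of each gene in Nsun7-/- against wild type (edgeR, n = 3 per genotype), with the line giving the 95% interval. The intervals of Gfra1 (0.14 to 0.91) and Dmrt1 (-0.56 to -0.03) lie on one side of 0, and those of Nanos2 and Nanos3 are the widest.

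Of the GDNF receptor genes, Gfra1, which encodes the co-receptor that binds GDNF, had the largest difference of the 10. Its CPM was 3.35, 3.53 and 3.31 in wild-type mice 1 to 3, and 4.49, 4.65 and 5.5 in knockout mice 1 to 3. All 3 knockout libraries lay above all 3 wild-type libraries. The log2 fold change was 0.52 (SE 0.18, 95% interval 0.14 to 0.91), with an unadjusted p of 0.0109 and an edgeR adjusted p of 0.404, so Gfra1 was not called. Behind these values were between 74 and 170 counts per library. Without wild-type mouse 1 and knockout mouse 3 the value was 0.42 (adjusted p = 0.788). Gfra1 overlaps the antisense gene Gm16277 in GENCODE M21, introns included, and the counting is not stated to use strand. Whether their exons overlap was not checked, so it is not known whether reads of the pair were mixed.

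Ret, the receptor tyrosine kinase that signals for the GDNF and GFRA1 complex, was at 4.98, 6.55 and 4.35 CPM in wild-type mice 1 to 3 and at 5.94, 4.72 and 5.21 in knockout mice. The genotypes overlapped throughout. Its log2 fold change was 0.00 (95% interval -0.41 to 0.41, adjusted p = 0.996). Per length, the ratio of Gfra1 to Ret within a library was 1.03, 0.794 and 1.02 in wild-type testes and 1.09, 1.55 and 1.53 in Nsun7-/- testes. This was without overlap (two-sided exact permutation test p = 0.1, the smallest that 3 against 3 libraries allow). The adjusted p was 0.2 over 4 ratios between partner genes, chosen after their values were known. The separation depended on short transcripts of few counts. Gfra1-202, of 349 bases, held 2.98 and 3.32 counts in knockout mice 2 and 3 and made up 37.2% and 32.4% of their Gfra1 TPM. Without it the knockout ratios were 1.09, 0.975 and 1.03 and overlapped the wild-type ones (exact permutation p = 0.5). Other Gfra1 transcripts under 1000 bases stayed in that ratio, in wild-type mice 1 to 3 and knockout mouse 1. Without all transcripts under 1000 bases the ratios were 0.862, 0.64 and 0.893 in wild-type testes. In Nsun7-/- testes they were then 0.883, 0.975 and 1.03, and the genotypes overlapped (exact permutation p = 0.2). The ratio of estimated counts overlapped as well (exact permutation p = 0.2). These alternatives were added after the data were seen.

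Among factors of the undifferentiated state, Zbtb16 varied least. This zinc finger repressor was at 21.1, 19.2 and 19.2 CPM in wild-type mice 1 to 3 and at 21.5, 19.9 and 21.2 in knockout mice, a 1.12-fold range over all 6 libraries. Its log2 fold change was 0.07 (SE 0.12, 95% interval -0.20 to 0.34, adjusted p = 0.87). Id4 encodes a helix-loop-helix protein that binds and blocks E proteins. It was at 47.6, 43 and 45 CPM in wild-type testes and at 43.9, 45.1 and 38.6 in Nsun7-/- testes, overlapping apart from the low value of knockout mouse 3 (log2 fold change -0.09, 95% interval -0.34 to 0.17, adjusted p = 0.825). A330033J07Rik and Gm49291 overlap Id4 on the other strand.

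The NANOS genes encode zinc finger proteins that bind RNA and repress their targets. Nanos2 held only 14, 23 and 42 counts in wild-type mice 1 to 3 and 15, 26 and 54 in knockout mice, or from 0.606 to 1.75 CPM. Its 2.88-fold spread between libraries was the widest of the 10 and was present within each genotype. Nanos3 held 26, 18 and 11 counts in wild-type testes and 13, 19 and 26 in Nsun7-/- testes. Its spread was 2.78-fold. The intervals were wide, with log2 fold changes of 0.09 (95% interval -0.81 to 0.99) for Nanos2 and -0.12 (-0.99 to 0.75) for Nanos3 and adjusted p of 0.959 and 0.943. Gm45058 overlaps Nanos2 on the other strand, and the miRNA genes Mir181c and Mir181d lie within Nanos3 on the same strand.

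SOHLH1 and SOHLH2 are basic helix-loop-helix factors that work together as spermatogonia begin to differentiate. Sohlh1 was at 11.6, 9.65 and 8.82 CPM in wild-type mice 1 to 3 and at 9.66, 8.85 and 6.66 in knockout mice. Wild-type mouse 1 was highest and knockout mouse 3 lowest, and the other 4 libraries interleaved. The log2 fold change of -0.26 (SE 0.17, 95% interval -0.63 to 0.12, adjusted p = 0.675) became 0.00 without those 2 libraries. Sohlh2 was at 20.2, 16.6 and 21.3 CPM in wild-type testes and 18.8, 21.3 and 18.9 in Nsun7-/- testes (log2 fold change 0.02, 95% interval -0.28 to 0.32, adjusted p = 0.969). The ratio of Sohlh1 to Sohlh2 in TPM ran from 0.815 to 1.14 in wild-type testes and from 0.694 to 1.01 in Nsun7-/- testes, and overlapped (exact permutation p = 0.3).

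**Figure D3:**
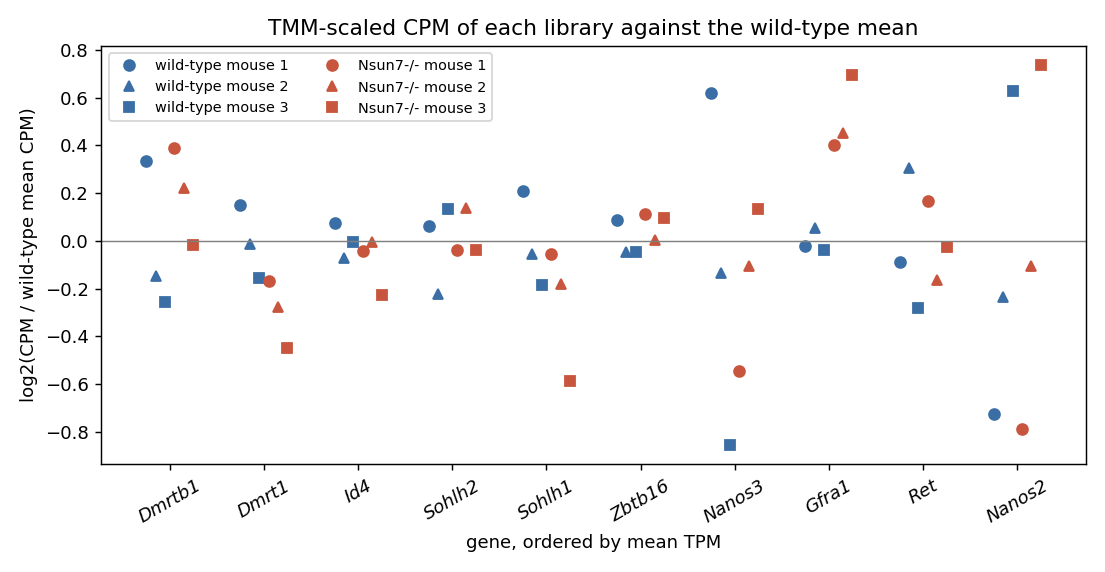
Log2 ratio of the TMM-scaled CPM of each library to the wild-type mean of the same gene, in the order of mean TPM. The 3 knockout libraries of Gfra1 lie above and those of Dmrt1 below all wild-type libraries, and Nanos2 and Nanos3 scatter most within a genotype.

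The DM domain family, transcription factors that bind DNA through a shared zinc module, includes 2 of the 10 genes, with fold changes of opposite sign. Dmrt1, which is also made by Sertoli cells, was at 82.9, 74 and 66.9 CPM in wild-type mice 1 to 3 and at 66.3, 61.5 and 54.7 in knockout mice. All knockout values lay below all wild-type values, the nearest pair by under 1 CPM. The log2 fold change was -0.29 (SE 0.12, 95% interval -0.56 to -0.03, unadjusted p = 0.0339, adjusted p = 0.566), and -0.14 without wild-type mouse 1 and knockout mouse 3. Sertoli cell markers, given beside it because Dmrt1 is not confined to germ cells, summed to between 1464 and 1654 CPM in wild-type testes and between 1190 and 1808 in Nsun7-/- testes. None of the 8 was called, 6 were below 0, and 7 were above 0 without those 2 libraries. Their part in the value of Dmrt1 was not tested.

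Dmrtb1, known as a regulator of the passage of spermatogonia from mitosis to meiosis, was at 426, 306 and 283 CPM in wild-type mice 1 to 3 and at 443, 394 and 335 in knockout mice. Only wild-type mouse 1 reached into the knockout range. The log2 fold change was 0.21 (SE 0.16, 95% interval -0.14 to 0.56, adjusted p = 0.71), 0.40 without wild-type mouse 1 (adjusted p = 0.94) and 0.51 without that mouse and knockout mouse 3 (adjusted p = 0.0585), so it was not called in any of these fits. On TPM the genotypes did not overlap, at 304, 275 and 294 in wild-type testes and 440, 428 and 430 in Nsun7-/- testes. The TPM of Gfra1 and Zbtb16, higher in Nsun7-/- testes, and of Dmrt1, lower there, did not overlap either. With Dmrtb1 these were 4 of the 10, against 20.1% of all tested genes. The median of all genes moved by 0.24 on the log2(TPM + 1) scale, and limma on that scale called none of the 10 (Dmrtb1 0.57, adjusted p = 0.207). Within a library the ratio of Dmrtb1 to Dmrt1 in TPM was 5.23, 4.36 and 4.81 in wild-type testes and 7.57, 8.14 and 8.11 in Nsun7-/- testes (exact permutation p = 0.1, adjusted p = 0.2 over the 4 ratios). The common scale of a library cancels in this ratio, but the split of reads among transcripts of unlike length does not, and its part was not tested. Estimated counts of Dmrtb1 were 9406, 7884 and 7352 in wild-type testes and 10950, 10515 and 10344 in Nsun7-/- testes. Those of Dmrt1 were 1830, 1908 and 1737, and 1641, 1641 and 1692.

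Dmrtb1 is annotated with an upstream and a downstream start. Transcript Dmrtb1-201, of 1861 bases, begins at the upstream start, and Dmrtb1-203, of 1327 bases, begins at the downstream one. Both windows in RefSeq's set (GRCm38.p6, minus strand, 250 bases before to 50 after a start) are printed, because they are the starts of the main transcripts of the most abundant of the 10 genes. The starts lie 641 bases apart. That of the upper window is the first base of Dmrtb1-201 and that of the lower one lies 9 bases from the first base of Dmrtb1-203. Capitals mark E-boxes (CANNTG, its own complement, so both strands are covered), the motif class bound by helix-loop-helix factors such as the SOHLH proteins.
Dmrtb1 upstream start, chr4:107684181-107684480: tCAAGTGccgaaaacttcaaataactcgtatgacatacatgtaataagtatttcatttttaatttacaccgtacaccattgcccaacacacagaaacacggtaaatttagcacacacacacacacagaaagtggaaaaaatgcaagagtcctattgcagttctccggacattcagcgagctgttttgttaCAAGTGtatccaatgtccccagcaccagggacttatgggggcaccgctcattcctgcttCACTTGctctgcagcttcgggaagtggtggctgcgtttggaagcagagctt
Dmrtb1 downstream start, chr4:107683540-107683839: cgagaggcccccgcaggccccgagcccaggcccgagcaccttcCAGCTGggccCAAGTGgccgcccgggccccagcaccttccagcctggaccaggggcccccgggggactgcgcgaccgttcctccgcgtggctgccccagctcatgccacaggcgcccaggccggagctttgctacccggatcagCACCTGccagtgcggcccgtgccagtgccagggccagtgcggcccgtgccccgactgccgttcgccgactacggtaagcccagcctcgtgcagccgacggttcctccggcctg

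The windows differ in base composition. The upstream one has a GC content of 44.7% and 9 CpG pairs, and the downstream one 74.7% and 28, where the median of 32851 mouse promoters of this length is 52.7% and 7. Each holds 3 E-boxes. At least 1 E-box is present in 72.3% of all promoters and in 6 of the 8 windows listed for 7 of the 10 genes, so the motif does not set these genes apart. The upstream window has 1 CCAAT box (CCAAT, either strand, 37.4% of promoters) and the downstream one 1 GC box (GGGCGG, either strand, 35.7%).

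The 2 main Dmrtb1 transcripts had fold changes of opposite sign. To Dmrtb1-203 were assigned 7874, 6424 and 5969 counts in wild-type mice 1 to 3 against 9675, 9313 and 9047 in knockout mice. Dmrtb1-201 held 1487, 1447 and 1292 in wild-type testes and 1226, 1152 and 1159 in Nsun7-/- testes. In these unscaled counts neither transcript overlapped between the genotypes, while in CPM both did. The share of Dmrtb1-201 in all Dmrtb1 counts was 15.8%, 18.4% and 17.6% in wild-type testes and 11.2%, 11% and 11.2% in Nsun7-/- testes, a difference of -6.13 percentage points, and from -6.85 to -5.57 when each mouse was left out in turn. As a share of TPM the difference was -4.6 points. All knockout shares lay below all wild-type shares (exact permutation p = 0.1, the smallest possible), a point seen before it was tested. Of 21 transcript shares with a count in 6 of the genes, these 2 complementary ones were the pair without overlap, a share close to the 9.36% without overlap over all genes with more than 1 transcript. As single transcripts neither was called among 58773 (edgeR log2 fold change -0.42, 95% interval -0.82 to -0.02, adjusted p = 0.932 for Dmrtb1-201, and 0.30, -0.19 to 0.79, adjusted p = 0.932 for Dmrtb1-203), where 16 (0.0272%) were. Kallisto assigns reads by their match to each transcript, and 35.5% of the 31-base stretches of Dmrtb1-201 but 8.87% of those of Dmrtb1-203 occur in no other Dmrtb1 transcript.

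Dmrt1 has 3 annotated transcripts, and their shares overlapped between the genotypes. The longest, Dmrt1-201, of 2340 bases, took 24.2%, 29.2% and 39.6% of Dmrt1 counts in wild-type mice 1 to 3 and 37.6%, 53.2% and 57.8% in knockout mice. Wild-type mouse 3 and knockout mouse 1 overlapped. Dmrt1-202, of 1130 bases, took 32.1%, 21.9% and 19.8% in wild-type testes and 20.9%, 11.4% and 9.23% in Nsun7-/- testes, and the noncoding Dmrt1-203 between 33% and 48.8% in all libraries. The lowest share of Dmrt1-201 was in wild-type mouse 1 and the highest in knockout mouse 3, which also lay at the ends of the first principal component (-38.3 and 49.2) and of the Rmrp share of counts (4.85% and 0.985%). The fragment length kallisto used, taken as the median difference of length and effective length over long transcripts, was 154.2, 167.7 and 175.1 bases in wild-type mice 1 to 3 and 175.7, 178.5 and 175.5 in knockout mice, without overlap. The part of these in the shares of the Dmrt1 and Dmrtb1 transcripts was not tested. Of the 31-base stretches of Dmrt1-202, 2.36% occur in no other Dmrt1 transcript. No Dmrt1 transcript was called, with log2 fold changes of 0.38, -1.12 and -0.57 for Dmrt1-201, Dmrt1-202 and Dmrt1-203 and an adjusted p of 0.932 each. Of 17 transcripts of the 10 genes tested, 0 were called, and 3 (Dmrt1-202, Dmrt1-203 and Dmrtb1-201) had an unadjusted p under 0.05, against 4.76% of all 58773.

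**Figure D4:**
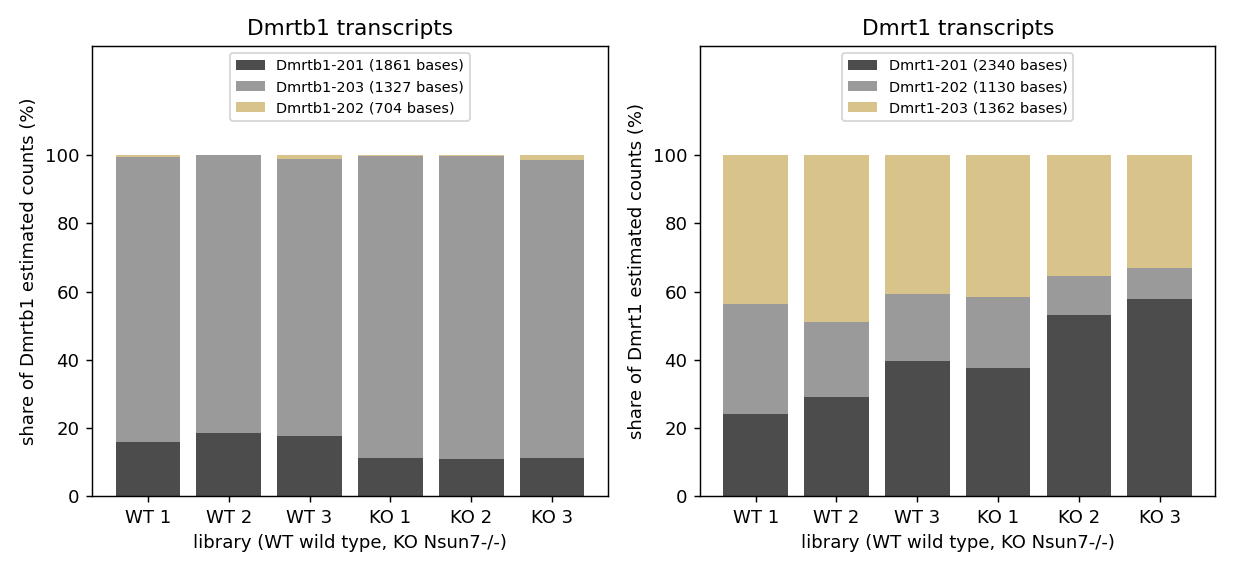
Share of estimated counts taken by each annotated transcript of Dmrtb1 (left) and Dmrt1 (right) in each library, in percent, WT for wild type and KO for Nsun7-/-. Dmrtb1-201 takes 15.8% to 18.4% in the wild-type libraries and 11% to 11.2% in Nsun7-/- testes libraries, while the Dmrt1 shares overlap between the genotypes.

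Of 27 other genes of undifferentiated spermatogonia 24 were tested (T, Pdx1 and Pax7 did not pass the filter). In edgeR 1 was called, against 0.567% of all tested genes. An unadjusted p under 0.05 was found for 5 of the 24, against 8.39% of all. The CPM of 8 did not overlap between the genotypes, against 14.3% of all. Shisa6, a transmembrane protein gene known to mark undifferentiated spermatogonia, was at 1.04, 0.892 and 0.886 CPM in wild-type mice 1 to 3 and at 2.71, 1.95 and 2.39 in knockout mice. It rose without overlap, with a log2 fold change of 1.32 (SE 0.26, edgeR adjusted p = 0.034). The call was lost without wild-type mouse 1 (0.112), 2 (0.16) or 3 (0.153), knockout mouse 1 (0.0648) or 3 (0.072), in voom (0.054) and on TPM, and Gm12296 overlaps Shisa6 on the other strand. Tspan8, a tetraspanin used to enrich stem cells, was at 1.69 ± 0.406 CPM in wild-type testes and 3.68 ± 0.641 in Nsun7-/- testes (log2 fold change 1.12, edgeR adjusted p = 0.0635). Of 18 alternatives 4 called Tspan8. They were DESeq2 (0.0446), no filter on low counts (0.0227), the replicate number as a block (0.00676) and leaving out knockout mouse 3 (0.0445). Voom did not call it (0.0814), and neither did limma on any TPM scale (0.0655 or more). The other fits with a single mouse left out did not call it either (0.0906 to 0.253). On the other strand 4930422I22Rik overlaps Tspan8. The highest level was that of Adgra3, an adhesion receptor gene, at 52.7 ± 12 TPM in wild type (log2 fold change 0.25, adjusted p = 0.63). Of the list's values 12 lay above and 12 below 0, with a median of 0.00. The lowest edgeR values of the list, named after they were seen, were those of Eomes, Cdh1 and Utf1. The T-box factor gene Eomes was at -1.05 (adjusted p = 0.182), the E-cadherin gene Cdh1 at -0.79 (0.164) and Utf1 at -0.69 (0.57). Each was nearer to 0 than the values of Shisa6 and Tspan8. Eomes, which Gm33460 overlaps on the other strand, and Cdh1 did not overlap between the genotypes. Without wild-type mouse 1 and knockout mouse 3 no gene of the list was called.

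Genes of differentiating spermatogonia had values mostly below 0, with none called. Of 10 tested, 9 were below 0 and 1 above, with a median of -0.19 against 0.02 for all tested genes. Of all 21002 tested genes 9978 were below 0. Stra8, the retinoic acid target that starts meiosis, was at 13 ± 1.22 CPM in wild-type testes and 9.5 ± 0.695 in Nsun7-/- testes (log2 fold change -0.46, edgeR adjusted p = 0.325). Meiosin, the partner of STRA8, was at 46 ± 3.37 and 36.3 ± 3.77 CPM (-0.34, adjusted p = 0.467), and Uchl1, the highest of the list per length at 121 ± 19 TPM in wild type, was at -0.15 (adjusted p = 0.754), and at 0.14 on log2(TPM + 1). Uchl1os overlaps Uchl1 on the other strand. For 6 of the 10 the CPM did not overlap between the genotypes, against 14.3% of all genes, and 1 of these, Kit, was higher in the knockout. An edgeR unadjusted p under 0.05 was found for 3, against 8.39% of all genes. Without wild-type mouse 1 and knockout mouse 3, 7 of 10 were below 0 with a median of -0.06. Kit, named for its role as the receptor that marks these cells and not by the rule, was at 73.2 ± 1.04 CPM in wild-type testes and 75.4 ± 0.741 in Nsun7-/- testes (0.04, adjusted p = 0.916), without overlap. Markers of early meiosis, the stage that follows, had 5 of 5 values below 0, and summed to 98.6 to 113 CPM in wild-type testes and 86.3 to 99.8 in Nsun7-/- testes, with none called. Without those 2 libraries 4 of the 5 were below 0, and their median went from -0.18 to -0.02. In all libraries, markers of later stages were below 0 for 4 of 5 in pachytene, 2 of 5 in round spermatids and 5 of 5 in elongating spermatids. Their medians were -0.06, 0.08 and -0.39, with none called. The part of these germ cell stages in the values of the differentiating list was not tested.

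Among 22 tested ligands, receptors and retinoid enzymes of the stem cell niche (Pspn and Fgf9 did not pass the filter), 2 were called and both rose. Over all tested genes 0.567% were called. Of the 22, 5 had an edgeR unadjusted p under 0.05, against 8.39% of all. The CPM of 9 did not overlap between the genotypes, against 14.3% of all. Cxcl12, the chemokine that holds stem cells in the niche through CXCR4, was at 16.5, 18.5 and 17 CPM in wild-type mice 1 to 3 and at 35.6, 27.4 and 29.8 in knockout mice. The log2 fold change was 0.83 (SE 0.14, edgeR adjusted p = 0.00937), and 0.83 without wild-type mouse 1 and knockout mouse 3 (adjusted p = 0.0433). The call was lost without wild-type mouse 1 (0.107) or 3 (0.0695). Kitl, the ligand of KIT on differentiating spermatogonia, was at 6.7, 5.85 and 6.94 CPM in wild-type testes and at 11.2, 10.4 and 13.9 in Nsun7-/- testes. Both genes separated the genotypes with no overlap. Kitl had a log2 fold change of 0.87 (SE 0.16, adjusted p = 0.0253), and was not called without wild-type mouse 1 (0.12), 2 (0.169) or 3 (0.0852), knockout mouse 3 (0.0532), or wild-type mouse 1 and knockout mouse 3 together (0.093).

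The ligand of the GFRA1 and RET complex did not separate the genotypes. Gdnf, a gene named for that role and not by the rule, was at 2.65 ± 1.06 CPM in wild-type testes and 2.46 ± 0.474 in Nsun7-/- testes (log2 fold change -0.11, edgeR adjusted p = 0.916). Aldh1a1, a retinaldehyde dehydrogenase and the highest gene of the niche list at 82.8 ± 24.4 TPM in wild type, had a log2 fold change of 0.56 (adjusted p = 0.248), and C730002L08Rik and Gm6684 overlap it on the other strand. Somatic cells other than Sertoli cells also make niche factors, and Leydig cell markers are given beside Cxcl12 and Kitl for that reason. All 7 Leydig cell markers had values above 0, with a median of 0.80, and 2 were called, against 0.567% of all tested genes. Their summed levels were 1693 to 2837 CPM in wild-type testes and 2147 to 4820 in Nsun7-/- testes. For 5 macrophage markers the values were 5 above 0, 0 called, 130 to 158 CPM and 140 to 198 CPM, and for 5 peritubular markers 5 below 0, 0 called, 477 to 524 CPM and 358 to 468 CPM. The part of these cell types in the rises of Cxcl12 and Kitl was not tested.

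Partners and paralogs of the 10 genes showed no call among 17 tested, where 9 values were above and 8 below 0. Tcf4, an E protein gene of the class that ID4 blocks, was at 0.17 (adjusted p = 0.678), and Cnot1, the scaffold of the deadenylase complex that NANOS2 recruits and the highest of the list at 207 ± 47.6 TPM in wild type, was at 0.19 (adjusted p = 0.678 in edgeR). None of the 17 had an unadjusted p under 0.05, against 8.39% of all genes, and DESeq2 called 0. In GENCODE M21 other genes overlap Tcf4 and Cnot1.

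**Figure D5:**
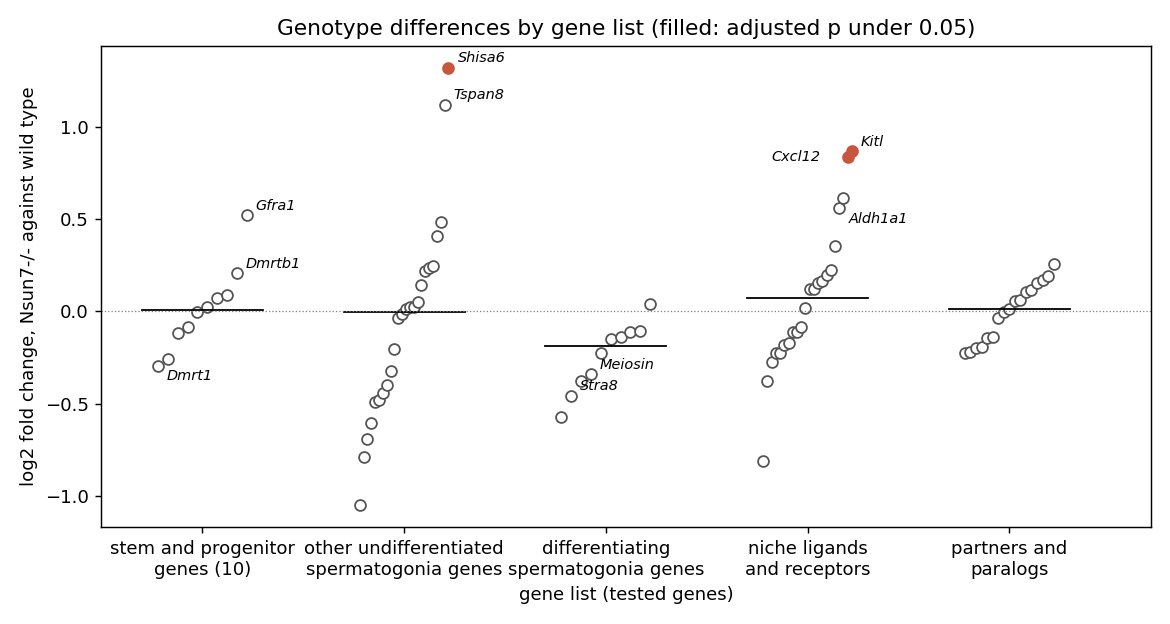
Log2 fold change in Nsun7-/- against wild type (edgeR) of each tested gene, by list, with the black line at the list's median and filled points for an adjusted p under 0.05. The 10 stem and progenitor genes centre on 0 with none filled, and the filled points are Shisa6, Cxcl12 and Kitl.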

How the data were processed

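Total RNA depleted of ribosomal and globin RNA was made into libraries with the NEBNext Ultra II RNA kit, per the labels' protocols, and quantification used kallisto 0.50.1 with mm39, as the submitters' processing notes list them. Which annotation release and strand setting were used, and how transcripts were joined to symbols, is not stated. The authors deposited estimated counts and TPM per transcript and, for the series, whole-number estimated counts and TPM per symbol. The transcripts matched to each of the 10 genes summed to within 0.48 counts of its deposited row. Transcript names and overlaps came from GENCODE M21 (GRCm38), promoters from RefSeq. Overlaps were taken between whole genes, introns included, and overlap of exons was not checked.

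The count test was edgeR 4.0.16 (R 4.3.3): TMM, filterByExpr (minimum count 10, total 15), robust quasi-likelihood test of genotype, Benjamini-Hochberg adjustment over all 21002 genes or 58773 transcripts (estimates rounded) and a threshold of 0.05. SEs are the log2 fold change over the square root of F. Positive values mean higher in the knockout. DESeq2 1.42.0 and limma 3.58.1 served as alternatives. Each library is 1 mouse. The 10 genes and the lists were chosen with earlier results of these data known. Beside the 10, the text names Nsun7 and, of each list, called genes, the 2 of smallest p and the highest mean TPM. Both tests were also run on simulated counts with known changes, where small changes were often missed, more so for transcripts than for genes.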

Additional observations from a re-analysis of the deposited data

How the results depend on the processing

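None of the 10 genes and none of their tested transcripts was called under any alternative run. A gene was held to have a direction where its main value was larger than its SE, as for Gfra1, Sohlh1, Dmrt1 and Dmrtb1 only. Values of the other genes were counted as kept whatever their sign, and those of Nanos2 ran from -0.657 to 0.545. By that rule 175 of 179 log2 fold changes of the 10 genes kept their direction and their side of the threshold. The exceptions were values of Sohlh1, 0.0513, 0.0559 and 0.0513 on log2(TPM + 1), log2(TPM + 0.1) and log2(TPM + 1) without a filter, and 0.00224 without wild-type mouse 1 and knockout mouse 3, an alternative chosen after the data were seen. In the same settings Uchl1 was at 0.138, 0.139, 0.138 and 0.0136. The median of the 10 genes was 0.195, 0.313 and 0.195 on those TPM scales and -0.0927 on centred log2(TPM + 1), where the median of all genes was 0.24, 0.30, 0.16 and -0.05. Calls over all genes numbered 180 without a filter on low counts, 331 with the replicate number as a block, 203 in DESeq2, 61 on log2(TPM + 1) (44 higher, 17 lower), 68 on log2(TPM + 0.1) (48 and 20), 63 on centred TPM (19 and 44), 12 on TPM without a filter, and 67 to 166 with each mouse left out. The undifferentiated list had 2 calls without a filter, 3 with the replicate block, 2 in DESeq2, 0 in voom, 0 on all 4 TPM scales, 0 without the 2 libraries and 0 to 1 with each mouse left out. The niche list had 0 calls on log2(TPM + 1), centred TPM and unfiltered TPM, 1 on log2(TPM + 0.1), 1 without the 2 libraries and 0 to 2 with each mouse left out. The labels do not state whether mouse numbers pair the mice. Deviations of same-numbered libraries correlated at 0.177, -0.00476 and 0.199 over genes, and those of differently numbered ones at -0.235 to 0.0565. The block is given as a count of calls and, for Tspan8 only, as an adjusted p, which rests on a pairing that is not stated. Nanos2 and Nanos3 held 11 to 54 counts per library, and the part of counting error in their spread was not tested. The cause of these shifts was not tested.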

Other observations

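The counts of 2 further genes were split among transcripts in ways that differed from library to library. Zbtb16-201, the longer transcript of 5114 bases, took between 31.9% and 53.5% of Zbtb16 counts in wild-type testes and between 37.9% and 51.1% in Nsun7-/- testes. Gfra1-201 took between 17.5% and 53.5% of Gfra1 counts in wild-type testes and between 26.3% and 46.6% in Nsun7-/- testes, with Gfra1-203 at 8.14% in wild-type mouse 1 and between 51.4% and 69% in the other 5 libraries. Only 1.02% of the 31-base stretches of Gfra1-201 and 0.639% of those of Gfra1-203 occur in no other Gfra1 transcript, so few reads can tell them apart. Ret was carried by Ret-202, at 89.3% or more of its counts in each library.

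Together the 10 genes took 0.0504% ± 0.00686 of all counts in wild-type testes and 0.0565% ± 0.004 in Nsun7-/- testes (SD, n = 3), and Dmrtb1 alone held between 62.4% and 72% of that. Of 14652 other genes with a mean of at least 1 CPM, those closest to the median profile of the 10 over the 6 libraries were Prok2, Heca, Ppp3ca and Tmem30a, with root mean square differences from 0.0152 to 0.0236 on the log2 scale. The profile was nearly flat, from -0.0626 to 0.0873.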
